A study of Mus musculus with 4 samples.

Results

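Lysosome genes of mouse blastocysts were examined in embryos edited in Ywhaz and in control embryos. The set was every gene that the deposited table assigns to the Lysosome pathway of KEGG, 135 of 22013 genes. Poly(A) RNA was sequenced in 4 libraries, 2 per group, each from a pool of 5 C57BL/6 blastocysts. Knockout embryos are labelled C57BL/6 Ywhaz knockout and were edited with CRISPR-Cas9 at the zygote stage. Their library names carry "si", a prefix in common use for small interfering RNA, and no label explains it. Control embryos are labelled C57BL/6 wild type. For their treatment the labels variously name Cas9 protein only, a control guide RNA and no treatment. Embryos of both groups were obtained by superovulation and grown in culture. No label gives the share of edited cells per embryo. Ywhaz encodes 14-3-3 zeta, an adaptor that binds phosphorylated proteins, and 14-3-3 proteins are known to hold phosphorylated TFEB, a regulator of lysosome genes, in the cytoplasm.

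The lysosome is the acidic organelle in which proteins, glycans, lipids and nucleic acids are broken down. Its soluble enzymes are made in the endoplasmic reticulum, tagged with mannose 6-phosphate in the Golgi and carried by mannose 6-phosphate receptors in clathrin-coated vesicles. The V-ATPase pumps protons into the lumen, and heavily glycosylated membrane proteins line the organelle. In the blastocyst, lysosomes serve protein uptake and turnover, most of all in trophectoderm and primitive endoderm, the outer and the yolk-sac-forming lineages.

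The targeted transcript lay below both controls in each knockout library, by very different amounts. Ywhaz stood at 32.7 and 98.2 FPKM in knockout libraries 1 and 2, against 143 and 123 FPKM in control libraries 1 and 2. FPKM is a level scaled to transcript length and library size. The log2 fold change of Ywhaz was −1.21 ± 0.39 (SE; limma adjusted p = 0.305), so the difference did not pass the threshold of 0.05 over the 9544 genes tested. The log2 fold change of Ywhaz was −1.99 without knockout library 2 and −0.43 without knockout library 1. Each of these 2 fits holds 1 knockout library and so carries no spread between knockout pools. Here and throughout, fold changes are knockout minus control in log2(FPKM + 1), a scale on which changes of low genes come out too small. Spacing of the lowest values put the depth at an estimated 16900000 to 18000000 fragments per library, so that a 2 kb transcript at 1 FPKM stands for 33.8 to 36.1 fragments. The labels do not say whether the 2 pools of a group had different parents or dates, and a p-value here measures no more than the spread between pools, which may be technical. The libraries of one group also stood apart from each other: of the 9544 genes, 66.1% were lower in knockout library 1 than in knockout library 2, and 67.9% were higher in control library 1 than in control library 2. Results below are therefore also given without single libraries.

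Many lysosome promoters carry an E-box known as the CLEAR element, to which TFEB binds. RefSeq promoter sequences of build GRCm38.p6, from 250 bases before to 50 bases after each start site, were matched by symbol for 106 of the 135 genes. The letters CACGTG, which read the same on both strands, were present in 24 of these 106 genes, or 22.6%, against 8.91% of 17492 protein-coding genes and 8.09% of all 27025 genes with such a sequence. The longer TCACGTGA, which contains CACGTG, was present in 10 of the 106 genes, or 9.43%, against 1.41% of protein-coding genes and 1.12% of all genes. Genes can have several start sites, on average 1.18 windows per gene in the pathway and 1.22 among protein-coding genes. The sites below come from a part of the 10 genes with TCACGTGA. They are shown because the same letters stand before genes measured lower, genes measured higher and genes with overlapping groups. None of these genes passed the test. Capitals mark TCACGTGA, and each sequence reads 5′ to 3′ on the strand of its gene.
Ctsd, chr7:142387908-142387937, minus strand: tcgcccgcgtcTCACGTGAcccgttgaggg
Ctsa, chr2:164833749-164833778, plus strand: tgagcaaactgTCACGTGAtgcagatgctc
Mcoln1, chr8:3500462-3500491, plus strand: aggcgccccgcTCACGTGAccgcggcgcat
Gla, chrX:134601215-134601244, minus strand: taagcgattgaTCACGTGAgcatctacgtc
Igf2r, chr17:12769737-12769766, minus strand: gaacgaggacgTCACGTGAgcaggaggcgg
Atp6v0d1, chr8:105566050-105566079, minus strand: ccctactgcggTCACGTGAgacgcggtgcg
Sumf1, chr6:108185577-108185606, minus strand: agcaccacaggTCACGTGAtctccatgggt

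Whole promoters of 3 genes are given to set a protease gene with matches beside a nuclease gene with none and a membrane protein gene with several. Capitals mark CACGTG. The window of Ctsd held 2 matches, that of Lamp1 held 4, and that of Dnase2a held none.
Ctsd, chr7:142387778-142388077, minus strand: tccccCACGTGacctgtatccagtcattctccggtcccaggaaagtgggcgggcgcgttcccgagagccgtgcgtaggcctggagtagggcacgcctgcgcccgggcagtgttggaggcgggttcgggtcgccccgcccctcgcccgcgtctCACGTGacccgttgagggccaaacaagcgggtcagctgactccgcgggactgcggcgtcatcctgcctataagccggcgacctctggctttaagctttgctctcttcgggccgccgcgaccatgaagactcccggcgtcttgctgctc
Lamp1, chr8:13158911-13159210, plus strand: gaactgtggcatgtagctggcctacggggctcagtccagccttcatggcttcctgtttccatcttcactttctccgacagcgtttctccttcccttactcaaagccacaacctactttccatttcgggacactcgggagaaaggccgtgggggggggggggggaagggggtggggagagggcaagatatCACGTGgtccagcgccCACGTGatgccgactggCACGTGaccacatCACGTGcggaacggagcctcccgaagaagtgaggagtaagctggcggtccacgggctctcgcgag
Dnase2a, chr8:84908505-84908804, plus strand: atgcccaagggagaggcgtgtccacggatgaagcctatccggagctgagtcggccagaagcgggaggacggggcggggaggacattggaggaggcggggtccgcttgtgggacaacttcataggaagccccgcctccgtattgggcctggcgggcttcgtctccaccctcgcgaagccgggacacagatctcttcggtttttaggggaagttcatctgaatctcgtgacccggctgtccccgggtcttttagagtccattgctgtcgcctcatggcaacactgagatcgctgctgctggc

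Of the 135 lysosome genes, 93 reached a mean of 1 FPKM over the 4 libraries and were tested, 34 lay below it, and 8 were listed at 0 in every library. The 8 were Atp6v0d2, Ctsg, Ctsm, Ctsw, Hyal4, Hyal5, Psapl1 and Spam1. The 34 low genes had means of 0.00925 to 0.995 FPKM. Lipa, the acid lipase, was among them with 0.140 and 0.126 FPKM in knockout libraries 1 and 2, against 0.040 and 0.059 FPKM in control libraries 1 and 2, and it was picked out after its values were seen. So were Ctsk, a collagen-degrading cathepsin of osteoclasts, at 0.039 and 0.041 FPKM, against 0.156 and 0.116 FPKM, and Ctss, a cathepsin of antigen-presenting cells, listed at 0 in 3 libraries. The 135 genes together held 1.19% and 1.35% of all FPKM in knockout libraries 1 and 2, against 1.46% and 1.24% in control libraries 1 and 2. The 5 most abundant made up 55.1% to 61.8% of that sum.

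No lysosome gene passed the threshold in the knockout comparison, but most were measured at lower levels in knockout than in control pools. At an adjusted p under 0.05 limma called 0 of 93 lysosome genes, where 0.0733% of all 9544 genes tested were called, and the smallest adjusted p was 0.278. At an unadjusted limma p under 0.05, 13 lysosome genes were lower, where 3.33% of all genes were, and 3 were higher, where 7.75% of all genes were. The log2 fold change was below 0 in 69 of 93 lysosome genes, or 74.2%, where 44.0% of all genes tested were below 0. Its median was −0.16 over the lysosome genes and 0.05 over all genes tested. The groups were separate in 34 genes. Both knockout libraries lay below both control libraries in 24 of the 93, or 25.8%, where 14.0% of all genes did, and above both in 10, where 27.4% of all genes did. In bulk samples such as these, fewer cells of a type and less RNA per cell cannot be told apart. In the authors' deposited table, 0 of the 135 genes had an FDR under 0.05, where 0.241% of all rows and 0.524% of the genes tested here had, and Dnase2a had the smallest, 0.246.

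The size of this shift rested on which libraries were compared. Without knockout library 1, 49 of 93 lysosome genes were lower, where 3425 of all 9544 genes tested were. Their median was −0.03, with 0.13 over all genes tested. Without control library 1, 53 were lower, where 3374 of all 9544 genes tested were, and the median was −0.04, with 0.12 over all genes. Without control library 2 the median was −0.30 and without knockout library 2 it was −0.27, with −0.004 and −0.008 over all genes. Without knockout library 2, limma called 6 lysosome genes, with Ctsa, Ctsd, Glb1, Hexa and Smpd1 lower and Ctsz higher, and it called 205 of the 9544 genes tested, 126 of them lower. That fit holds 1 knockout library, whose spread is assumed to be that of the control pools. Because 64 of the 93 genes were above a mean of 10 FPKM, the median was also taken at such levels, and it was −0.20 over these 64 genes and 0.001 over the 4274 genes tested there.

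Over all 4 libraries, lower values were more frequent among the hydrolases and their activators than among the other roles. Of 40 hydrolase and activator genes tested, 34 were lower and 6 higher, with a median log2 fold change of −0.26. In 14 of them, or 35.0%, both knockout libraries lay below both controls, and in 3 above, where 14.0% of all genes tested lay below and 27.4% above. Of 53 genes of the other roles, 35 were lower, or 66.0%, where 44.0% of all genes tested were, and 18 were higher. Their median was −0.07. The groups separated downward in 10 of the 53, or 18.9%, where 14.0% of all genes did, and upward in 7, where 27.4% did. The summed level of hydrolases and activators was 2481 and 3326 FPKM in knockout libraries 1 and 2, against 3994 and 3049 FPKM in control libraries 1 and 2. Knockout library 2 thus lay between the controls on this sum. The summed level of the other roles was 8624 and 8339 FPKM in knockout libraries, against 9173 and 8628 FPKM in control libraries. Against the control mean, the median log2 difference of hydrolases and activators was −0.36 in knockout library 1 and −0.14 in knockout library 2. For the other roles it was −0.17 and 0.02, and for all genes tested −0.008 and 0.13. Without knockout library 1, 11 of 14 glycosidases, 5 of 7 cathepsins and 3 of 3 other proteases were lower. So were 2 of 8 lipid hydrolases and activators, 2 of 5 other hydrolases and 1 of 3 sulfatases. Of the other roles, 10 of 17 membrane proteins, 4 of 9 V-ATPase genes and 10 of 26 sorting and coat genes were lower. Without control library 1 these counts ran 11, 5 and 2, then 4, 3 and 1, then 10, 5 and 11. The difference between roles was not tested.

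**Figure D1:**
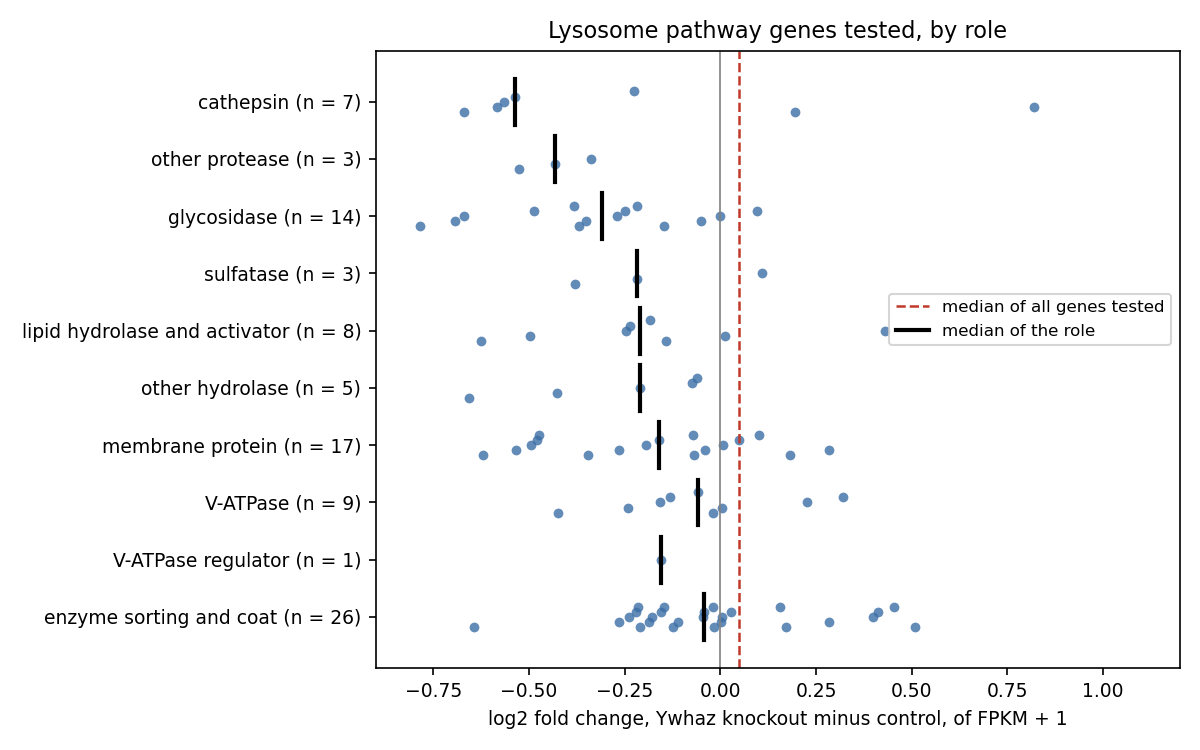
Log2 fold change (knockout minus control, FPKM + 1) of the 93 lysosome genes tested, 1 point per gene, grouped by role. Black bars are role medians and the dashed line is the median of all 9544 genes tested, 0.05; the medians run from −0.54 for cathepsins to −0.04 for sorting and coat genes, and Ctsz is the cathepsin at 0.82.

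Cathepsins, the main lysosomal proteases, had the lowest median of all roles in the main fit, −0.54 over 7 genes tested of 16. Of these, 5 were lower and 2 higher. With no filter on low values the cathepsin median was −0.13 over 13 genes, and that of the other proteases was −0.43. Ctsd, an aspartic protease and the most abundant cathepsin here, stood at 202 and 301 FPKM in knockout libraries 1 and 2, against 471 and 329 FPKM in control libraries 1 and 2. Its groups did not overlap, but knockout library 2 and control library 2 were close, and the log2 fold change of −0.67 ± 0.24 (SE) gave a limma adjusted p of 0.347. Ctsa, a carboxypeptidase that also protects Glb1 and the sialidase Neu1 from degradation, stood at 139 and 253 FPKM in knockout libraries, against 367 and 209 FPKM in control libraries. Its knockout library 2 lay above control library 2, so the groups overlapped.

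Ctsh, an aminopeptidase, had 21.8 and 27.6 FPKM in knockout libraries, against 43.0 and 32.3 FPKM in control libraries, with no overlap (limma log2 fold change −0.58 ± 0.23 SE, adjusted p = 0.391). Ctsc, a dipeptidyl peptidase that activates granule proteases in immune cells, had 149 and 215 FPKM, against 176 and 139 FPKM, and overlapped. Ctsz ran the other way. This carboxypeptidase stood at 35.9 and 21.1 FPKM in knockout libraries, against 15.3 and 15.2 FPKM in control libraries, with the largest positive log2 fold change of the 93 genes, 0.82 ± 0.26 (SE; limma adjusted p = 0.305). The other two tested cathepsins, named after their values were seen, were the cysteine proteases Ctsb and Ctsl. Ctsb had 35.3 and 49.7 FPKM in knockout libraries, against 69.5 and 53.9 FPKM in control libraries, without overlap. Ctsl had 118 and 94.6 FPKM, against 91.6 and 166 FPKM, and was the cathepsin in which control library 2 stood highest. Leaving out knockout library 1 brought the cathepsin median to −0.30, with −0.31 for the other proteases and 0.13 over all genes tested. Leaving out knockout library 2 brought the cathepsin median to −0.75, with −0.008 over all genes tested.

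All 3 of the other proteases tested were lower, with a median of −0.43. Tpp1, a tripeptidyl peptidase, stood at 30.3 and 42.1 FPKM in knockout libraries, against 51.9 FPKM in each control library (limma log2 fold change −0.53 ± 0.22 SE, adjusted p = 0.412). Lgmn, the asparaginyl endopeptidase that matures cathepsins, had 44.8 and 46.9 FPKM, against 75.7 and 44.6 FPKM, so that control library 1 alone was high. Napsa, an aspartic protease, had 11.4 and 7.41 FPKM, against 14.7 and 11.05 FPKM, with overlap.

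**Figure D2:**
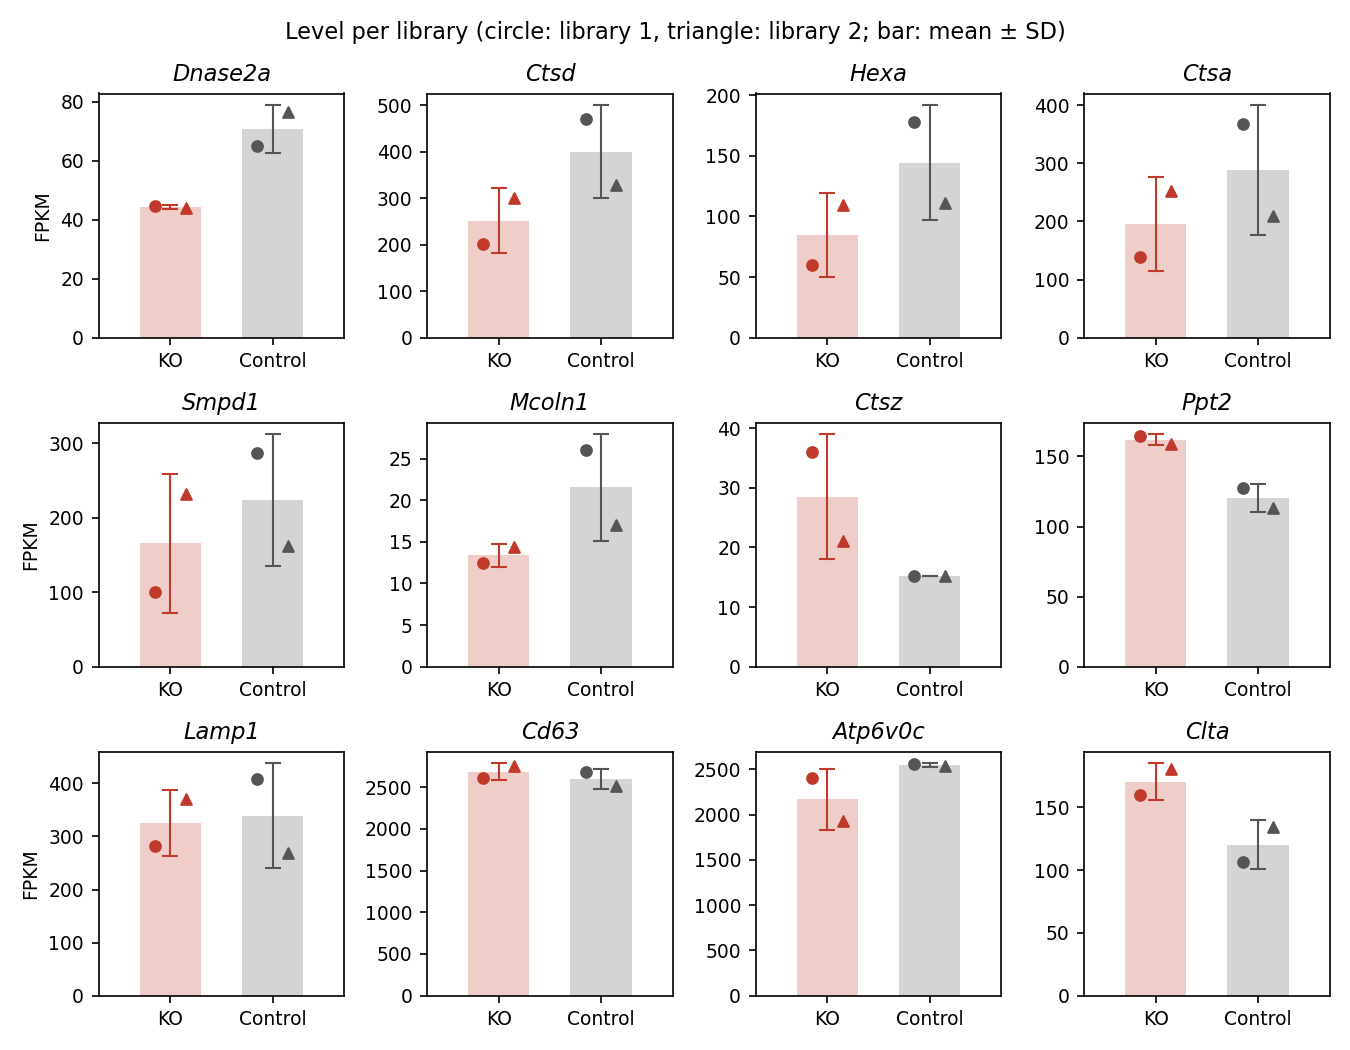
FPKM of 12 lysosome genes in knockout (left, red) and control (right, grey) libraries; circles are library 1, triangles library 2, and bars show the mean ± SD of 2 libraries. Dnase2a, Ctsd, Hexa and Mcoln1 are lower in both knockout libraries, Ctsz, Ppt2 and Clta higher in both, Atp6v0c is lower by a small ratio, and Ctsa, Smpd1, Lamp1 and Cd63 overlap.

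Glycosidases, which remove sugars from glycoproteins, glycolipids and glycosaminoglycans, were lower in 13 of 14 genes tested, with a median log2 fold change of −0.31. The groups separated downward in 7 of the 14 and upward in none, where 14.0% of all genes tested separated downward and 27.4% upward. Hexa, which encodes the alpha subunit of a hexosaminidase, stood at 60.1 and 109 FPKM in knockout libraries 1 and 2, against 178 and 111 FPKM in control libraries 1 and 2, a log2 fold change of −0.78 ± 0.30 (SE; limma adjusted p = 0.379). This was the most negative fold change of the 93 genes, yet knockout library 2 and control library 2 were nearly equal.

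Glb1, the beta-galactosidase, had 23.2 and 38.3 FPKM in knockout libraries, against 62.8 and 36.8 FPKM in control libraries, and overlapped. Hyal1, a hyaluronidase, had 1.42 and 1.57 FPKM, against 2.74 and 3.36 FPKM, without overlap (limma log2 fold change −0.69 ± 0.24 SE, adjusted p = 0.346). Gla, the alpha-galactosidase, and Gaa, the acid alpha-glucosidase, were named after their values were seen. Gla had 58.9 and 66.9 FPKM in knockout libraries, against 78.0 and 71.7 FPKM in control libraries. Gaa had 10.8 and 12.3 FPKM, against 18.9 and 9.63 FPKM, and overlapped. The glycosidase median stayed negative without any single library, at −0.22 without knockout library 1 and −0.20 without control library 1. In these 2 fits the median of all genes tested was 0.13 and 0.12.

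Sulfatases, which strip sulfate from glycosaminoglycans and sulfolipids, were scarce in these embryos. Only 3 of 8 reached 1 FPKM, and 2 of the 3 were lower. Arsa, arylsulfatase A, had 0.698 and 1.21 FPKM in knockout libraries, against 2.30 and 0.923 FPKM in control libraries. The groups overlapped. Sumf1, the endoplasmic reticulum enzyme that activates sulfatases, had 1.60 and 1.73 FPKM, against 1.57 and 1.38 FPKM.

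Lipid hydrolases and their activators included several abundant genes whose pools differed widely within each group. Of 8 genes tested 6 were lower, with a median of −0.21. The median was 0.12 without knockout library 1, where that of all genes tested was 0.13. It was −0.49 without knockout library 2, with −0.008 over all genes tested. Gm2a, an activator protein that presents gangliosides to their hydrolase, had 207 and 365 FPKM in knockout libraries, against 418 and 233 FPKM in control libraries. Psap, the precursor of the saposins, had 211 and 279.8 FPKM, against 319 and 226 FPKM. Smpd1, the acid sphingomyelinase, had 99.7 and 232 FPKM, against 286 and 162 FPKM. In each of these 3 genes control library 1 was highest, knockout library 2 second and knockout library 1 lowest.

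Npc2, a cholesterol carrier of the lumen, had 265 and 326 FPKM in knockout libraries, against 348 and 344 FPKM in control libraries, without overlap (limma log2 fold change −0.24 ± 0.18 SE, adjusted p = 0.676). The palmitoyl-protein thioesterases went opposite ways. Ppt1 had 6.36 and 10.5 FPKM in knockout libraries, against 13.9 and 12.5 FPKM in control libraries, and Ppt2 had 165 and 159 FPKM, against 127 and 113 FPKM. Neither gene overlapped between groups, and the log2 fold changes were −0.62 ± 0.27 (SE; limma adjusted p = 0.433) for Ppt1 and 0.43 ± 0.18 (SE; limma adjusted p = 0.412) for Ppt2.

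Among the other hydrolases, Dnase2a, the acid endonuclease that digests DNA in lysosomes, had the smallest p of all lysosome genes. It stood at 44.8 and 43.9 FPKM in knockout libraries 1 and 2, against 64.9 and 76.4 FPKM in control libraries 1 and 2. The mean in knockout pools was 62.7% of that in control pools, with knockout libraries that differed by less than 1 FPKM and no overlap (limma log2 fold change −0.66 ± 0.19 SE, adjusted p = 0.278). The acid phosphatases overlapped. Acp2, the lysosomal acid phosphatase, had 3.71 and 8.58 FPKM in knockout libraries, against 8.77 and 7.34 FPKM in control libraries. Acp5, the tartrate-resistant acid phosphatase, had 34.0 and 36.6 FPKM, against 48.5 and 34.5 FPKM.

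**Figure D3:**
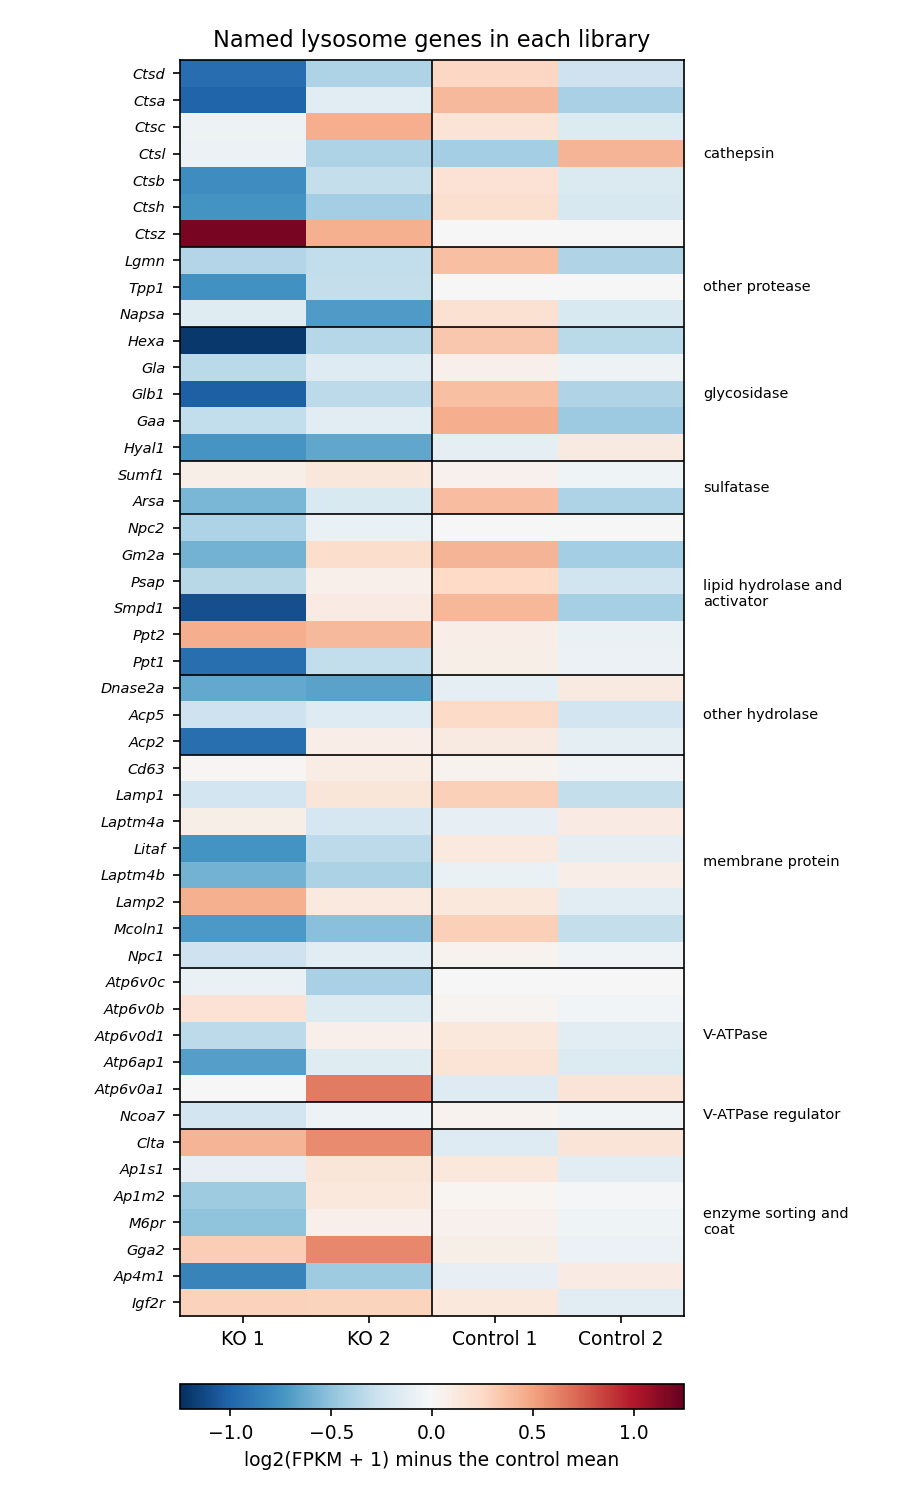
Log2(FPKM + 1) of 47 lysosome genes in each library (columns, knockout left) relative to the mean of the control libraries, grouped by role; blue is lower and red is higher. Most proteases, glycosidases and other hydrolases are blue in knockout library 1 and many are paler in knockout library 2, with Ctsz red in both; control library 1 is redder than control library 2 in most rows, with Ctsl, Hyal1 and Dnase2a among the rows that run the other way.

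Of 17 membrane proteins tested, 12 were lower and 5 higher, with a median of −0.16. Mcoln1, the cation channel that releases lysosomal calcium, had 12.4 and 14.4 FPKM in knockout libraries, against 26.1 and 17.0 FPKM in control libraries (limma log2 fold change −0.62 ± 0.25 SE, adjusted p = 0.408). Litaf, a membrane protein of late endosomes, had 136 and 183 FPKM, against 249 and 211 FPKM (limma adjusted p = 0.377). Laptm4b, a transmembrane protein of late endosomes and lysosomes, had 114 and 131 FPKM, against 164 and 183 FPKM, a log2 fold change of −0.50 ± 0.18 (SE; limma adjusted p = 0.356). None of these 3 genes overlapped between groups.

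Cd63, a tetraspanin of late endosomes, was the most abundant of the 135 genes, with 2613 and 2758 FPKM in knockout libraries, against 2680.5 and 2509 FPKM in control libraries. Lamp1, a main structural glycoprotein, had 282 and 369.7 FPKM, against 409 and 269 FPKM, and Laptm4a had 296 and 243 FPKM, against 263 and 301 FPKM. All 3 overlapped, with log2 fold changes of 0.05 ± 0.16 for Cd63, −0.04 ± 0.23 for Lamp1 and −0.07 ± 0.18 for Laptm4a (SE). Lamp2 and Npc1 were named after their values were seen. Lamp2, the receptor of chaperone-mediated autophagy in one of its forms, had 125 and 99.3 FPKM in knockout libraries, against 100.3 and 83.4 FPKM in control libraries. Npc1, the membrane partner of Npc2 in cholesterol export, had 4.49 and 5.01 FPKM, against 5.77 and 5.40 FPKM.

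Most V-ATPase genes of the pathway build the membrane sector of the proton pump. Of 9 tested, 6 were lower, or 66.7%, where 44.0% of all genes tested were. Their median was −0.06, with 0.05 over all genes tested and −0.16 over the lysosome genes. Atp6v0c, a subunit of the proton-carrying ring, had 2404 and 1929 FPKM in knockout libraries, against 2562 and 2535 FPKM in control libraries (limma log2 fold change −0.24 ± 0.18 SE, adjusted p = 0.659). Atp6v0b, another ring subunit, had 1362 and 1068 FPKM, against 1230.2 and 1174 FPKM, with overlap. Atp6v0d1, which couples the ring to the catalytic sector, had 180.0 and 236 FPKM, against 247 and 207 FPKM. Atp6ap1, an assembly factor of the pump, had 59.9 and 87.2 FPKM, against 109.7 and 86.2 FPKM. Atp6v0a1, a membrane-anchored subunit, had 3.51 and 6.11 FPKM, against 3.07 and 4.06 FPKM. Ncoa7 was the single tested gene of 4 V-ATPase regulators, with 0.878 and 1.12 FPKM, against 1.297 and 1.15 FPKM. In a list of 15 further subunits and accessory proteins outside the pathway, 6 of 11 tested genes were lower and none passed, with a median of −0.04. Its most abundant members were Atp6v0e, with 1156 and 903 FPKM in knockout libraries, against 990 and 1117 FPKM in control libraries, and Atp6v1f, with 559 and 466 FPKM, against 569.7 and 595 FPKM. Its smallest p values fell to Atp6v1c2 and Atp6v1c1, alternative forms of 1 subunit of the catalytic sector. Atp6v1c2 had 0.511 and 0.960 FPKM in knockout libraries, against 1.86 and 1.47 FPKM in control libraries, and Atp6v1c1 had 63.8 and 66.0 FPKM, against 51.8 and 46.5 FPKM.

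Enzyme sorting and coat genes were mixed, with 16 of 26 lower, or 61.5%, where 44.0% of all genes tested were. The other 10 were higher, and the median was −0.04, with 0.05 over all genes tested. Clta, a clathrin light chain, stood at 160.3 and 181 FPKM in knockout libraries, against 107 and 134 FPKM in control libraries (limma log2 fold change 0.51 ± 0.19 SE, adjusted p = 0.377). Gga2, a Golgi adaptor that loads mannose 6-phosphate receptors, had 11.8 and 14.7 FPKM, against 9.86 and 8.82 FPKM. Ap4m1, a subunit of adaptor AP-4, ran the other way with 2.96 and 4.20 FPKM, against 5.59 and 6.62 FPKM (limma log2 fold change −0.64 ± 0.26 SE, adjusted p = 0.407). None of these 3 genes overlapped. Ap1s1 and Ap1m2, subunits of adaptor AP-1, did overlap, with 121 and 145 FPKM against 143 and 119 FPKM for Ap1s1 and 75.3 and 113 FPKM against 105 and 101.4 FPKM for Ap1m2. The mannose 6-phosphate receptors M6pr and Igf2r were named after their values were seen. M6pr had 31.2 and 46.6 FPKM in knockout libraries, against 46.4 and 42.8 FPKM in control libraries. Igf2r, which also clears the growth factor IGF2, had 4.14 and 4.10 FPKM, against 3.60 and 2.84 FPKM, without overlap (log2 fold change 0.29 ± 0.25 SE).

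The libraries of each group also differed from each other across the lysosome genes. Knockout library 1 was below knockout library 2 in 70 of 93 lysosome genes, or 75.3%, where 66.1% of all genes were. Control library 1 was above control library 2 in 77, or 82.8%, where 67.9% of all genes were. Knockout library 1 was the lowest of the 4 libraries in 50 of the 93 genes, or 53.8%, where 31.9% of all genes were. Across the 93 genes, which are not independent replicates and share each library's scaling, the differences within each group (knockout library 2 minus 1, and control library 1 minus 2) had a Pearson correlation of 0.34, with 0.24 across all 9544 genes. It was 0.42 across the 40 hydrolases and activators and 0.19 across the 53 other genes. Ranked by the smaller of their differences within the groups, Smpd1, Gm2a, Ctsa, Glb1 and Hexa came first, and these were picked out after their values were seen.

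**Figure D4:**
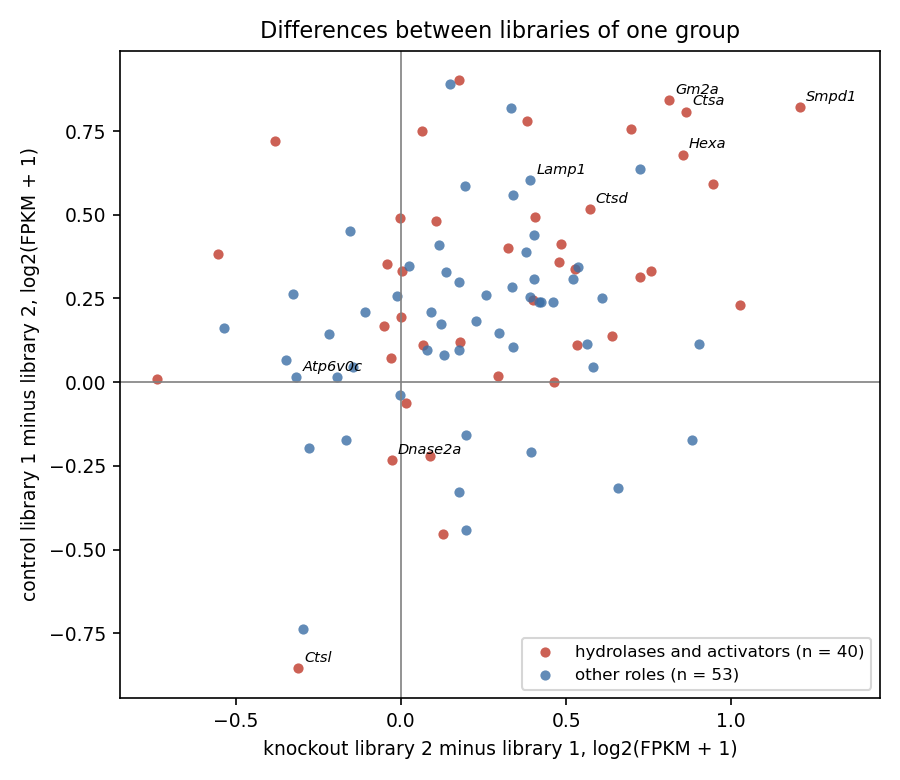
Difference between control libraries (1 minus 2, vertical) against the difference between knockout libraries (2 minus 1, horizontal), in log2(FPKM + 1), for the 93 lysosome genes tested; red points are hydrolases and activators, blue points the other roles. Most points lie in the upper right, with Smpd1, Ctsa, Gm2a and Hexa among those farthest out, and Ctsl lies in the lower left.

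The mitochondrial share and the summed levels of primitive endoderm and trophectoderm markers also differed within the groups, and their part in the result was not tested. The mitochondrial share of FPKM was 9.08% and 7.57% in knockout libraries 1 and 2, against 7.83% and 9.06% in control libraries 1 and 2. All 11 primitive endoderm markers were above 0 in at least 1 library and 8 were tested, 6 of them lower. Their summed level was 456 and 669 FPKM in knockout libraries, against 592 and 428 FPKM in control libraries, most of it from Dab2, an endocytic adaptor, at 394 and 599 FPKM, against 509.9 and 363 FPKM. Sparc, a basement membrane glycoprotein, had 2.17 and 5.41 FPKM in knockout libraries, against 12.7 and 6.65 FPKM in control libraries, Sox17, an endoderm factor, 0.521 and 0.523 FPKM, against 1.13 and 2.03 FPKM, and Gata6, another endoderm factor, 32.7 and 35.0 FPKM, against 38.8 and 32.8 FPKM. All 9 trophectoderm markers were tested, and their summed level was 241 and 367 FPKM in knockout libraries, against 248 and 197 FPKM in control libraries. The log2 fold change was above 0 in 7 of these 9 markers and its median was 0.35. The 5 epiblast markers found in the table, of 6 listed, summed to 270.2 and 287 FPKM, against 177 and 184 FPKM, which followed the groups. All 5 had a log2 fold change above 0, with a median of 0.19. The groups separated upward in 2 of the 5, where 27.4% of all genes tested did, and overlapped in 3. None of the lineage markers tested passed the limma threshold. By the authors' deposited FDR, 1 of the 9 trophectoderm markers was under 0.05, and no epiblast or primitive endoderm marker was, where 0.241% of all rows were. The part of these differences in the lysosome values was not tested.

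Fibroblast, granulosa and cumulus markers were at or near 0, while the macrophage and red blood cell lists were not. The 5 fibroblast markers summed to 0.562 and 0.257 FPKM in knockout libraries, against 0.508 and 0.424 FPKM in control libraries, and the 7 granulosa and cumulus markers to 1.26 and 1.34 FPKM, against 1.64 and 1.40 FPKM, with Cyp19a1 at 0 throughout. Of 8 macrophage markers 2 were tested, and the sum of all 8 was 43.5 and 29.7 FPKM in knockout libraries, against 20.9 and 22.8 FPKM in control libraries. Nearly all of it was Fcgr3, an Fc receptor gene, with 41.8 and 27.4 FPKM, against 18.1 and 20.4 FPKM, while Adgre1, Ptprc, Itgam and Tyrobp were each at 0 in 3 libraries. The 5 red blood cell markers summed to 16.0 and 6.10 FPKM, against 7.36 and 11.3 FPKM.

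Regulators of lysosome genes and of the organelle's position did not pass the threshold either. In a list of 18 genes for TFEB, its relatives and the nutrient sensors that control them, 8 of 13 tested were lower and 5 higher, with a median of −0.20. Tfe3, a relative of TFEB that binds the same element, had 3.05 and 4.10 FPKM in knockout libraries, against 6.22 and 4.30 FPKM in control libraries, without overlap (limma log2 fold change −0.44 ± 0.27 SE, adjusted p = 0.596). Rragd, a Rag GTPase of the lysosome surface, had 17.0 and 17.2 FPKM, against 13.6 and 11.4 FPKM. Lamtor5 and Lamtor1, parts of the Ragulator scaffold, had 384 and 291 FPKM against 334 and 379.6 FPKM for Lamtor5, and 169 and 175 FPKM against 229.7 and 174 FPKM for Lamtor1. Tfeb, named after its values were seen, had 17.5 and 19.4 FPKM in knockout libraries, against 29.6 and 17.2 FPKM in control libraries. In a list of 23 tethering and transport genes, 12 of 19 tested were higher, with a median of 0.05. Rab5a, a GTPase of early endosomes, had 18.1 and 29.0 FPKM, against 15.1 and 12.9 FPKM (limma log2 fold change 0.68 ± 0.26 SE, adjusted p = 0.379). Vps41, a tethering subunit, had 14.7 and 18.9 FPKM, against 12.1 and 11.6 FPKM, and neither gene overlapped between groups. Kxd1 and Bloc1s2, of the complex that positions lysosomes, were the most abundant, with 229 and 229 FPKM against 266 and 232 FPKM for Kxd1 and 264 and 234 FPKM against 219 and 249 FPKM for Bloc1s2.

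The promoter letters shown earlier stood before lysosome genes of either direction. The 10 tested genes with TCACGTGA had a median log2 fold change of −0.19, with 6 lower, and the 65 tested genes with a promoter sequence and without it had −0.15, with 46 lower. For CACGTG the medians were −0.22 over 19 genes with it and −0.15 over 56 genes without it. For the longer form with G before and C after TCACGTGA, the 2 tested genes with it were both higher, with a median of 0.19, against −0.15 over the 73 without it. Igf2r and Sumf1, with the element, were higher in both knockout libraries, whereas Ctsd, Mcoln1 and Gla, also with it, were lower in both. A match is a description of the sequence and not a sign of binding.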

How the data were processed

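RNA-seq was deposited as 1 table of 22013 genes with FPKM per library, rounded by the authors; it holds no counts. GRCm39, DESeq2, RSEM, StringTie 1.3.1, HISAT2 2.1.0, Bowtie2 2.2.8 and fastp 0.18.0 are listed, per the submitters' processing notes, without roles. The authors' deposited log2 column compares their group means, per the file headers; which tool made the deposited p-value and FDR columns, and whether counting used strand, are not given in the sources.

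limma 3.58.1 in R 4.3.3 was fitted on log2(FPKM + 1) with an intensity trend, over the 9544 genes averaging 1 FPKM or more, on group alone with 2 libraries per group, with Benjamini-Hochberg adjustment and a threshold of 0.05. The fit was tested on simulated data. With 2 against 2 libraries, no exact permutation test can reach 0.05. Low values of single-transcript genes, read as multiples of 1 fragment, gave the depth; 75.0% to 78.8% of those values lay within 0.1 of a whole fragment.

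Named genes were, per role, the 3 of highest level and the 3 of smallest p, and per further list the 2 of each; others are marked as chosen after their values were seen, and some genes the rule names are not reported here. The members, roles and lists were chosen with earlier results of these data known. Roles of 9 genes were assigned after the table was read. Alternatives covered the pseudocount, the filter, scaling, the trend, a replicate block and each library left out.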

Additional observations from a re-analysis of the deposited data

How the results depend on the processing

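Over all genes, limma called 7 (3 higher, 4 lower), against 13 with TPM scaling (7 higher, 6 lower), 4 with median-of-ratios scaling, 3 without the intensity trend, and 0 after quantile normalization or without a filter; leaving out 1 library gave 15 to 205. Lysosome genes called stayed at 0 in these settings except when 1 library was left out, where they ranged from 0 to 6. The lysosome median ranged from −0.30 to −0.03 with 1 library left out and from −0.24 with median-of-ratios scaling to −0.11 with no filter, where 83 of 127 genes were lower. The log2 fold change of Ywhaz ranged from −1.99 to −0.43 with 1 library left out.

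The replicate numbers are shared by the groups but not said to pair the pools, and deviations of same-numbered libraries had a correlation of −0.24 over genes. With the replicate block, limma called 38 genes, 0 of them lysosome genes, and Ywhaz passed at −1.21. The crossed pairing, added after the data were seen, called 475 genes, 7 of them lysosome genes, and Ywhaz passed at −1.21.

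Of 47 named lysosome genes, 29 kept their direction whichever library was left out. The other 18 changed sign within these ranges: Acp2 −0.94 to 0.085, Acp5 −0.45 to 0.032, Ap1m2 −0.45 to 0.14, Ap1s1 −0.10 to 0.16, Arsa −0.77 to 0.011, Atp6v0a1 −0.0094 to 0.65, Atp6v0b −0.17 to 0.18, Atp6v0d1 −0.33 to 0.064, Ctsc −0.067 to 0.46, Ctsl −0.65 to 0.20, Gaa −0.67 to 0.23, Gm2a −0.60 to 0.24, Lamp1 −0.34 to 0.26, Laptm4a −0.21 to 0.071, Lgmn −0.71 to 0.037, M6pr −0.50 to 0.062, Psap −0.39 to 0.10 and Smpd1 −1.10 to 0.11. With median-of-ratios scaling Ap1s1 (−0.063), Atp6v0b (−0.084) and Cd63 (−0.040) turned negative. The cause was not tested. With 2 pools per group, and at about 34 fragments per FPKM of a 2 kb transcript, differences in genes near 1 FPKM are limited by depth as well as by spread.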

Other observations

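Genes that the deposited table annotates to the lysosome by Gene Ontology but not by the KEGG pathway lay between the pathway genes and all genes in their share of lower values. Of 227 such genes tested, 119 were lower and 108 higher, or 52.4% lower where 44.0% of all genes tested were, with a median log2 fold change of −0.02 where that of all genes was 0.05, while 60 tested pathway genes with that annotation had 50 lower and a median of −0.23. The 33 tested pathway genes without it, mostly coat and adaptor genes, had 19 lower and a median of −0.04. All 10 tested pathway genes annotated to the lysosomal lumen were lower, with a median of −0.36. Their summed level was 420 and 494 FPKM in knockout libraries 1 and 2, against 656 and 523 FPKM in control libraries 1 and 2. Of 32 tested pathway genes annotated to the lysosomal membrane, 25 were lower, with a median of −0.19, and 174 tested genes with that annotation outside the pathway had 87 lower and 87 higher, with a median of 0.003. The annotations overlap, the genes share libraries, and the differences between these sets were not tested.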
